A study of Homo sapiens with 12 samples.

Results

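Selenoproteins carry selenocysteine, an amino acid in which selenium takes the place of the sulfur of cysteine, and 10 of their genes are described here in tumour spheroids of HepG2, a human liver tumour cell line. The genes are GPX1, GPX2, GPX3, GPX4, SELENOP, DIO1, TXNRD1, TXNRD2, MSRB1 and SEPHS2. They were listed by name, and for each the brightest probe set that carried its symbol alone was taken, a choice made on the mean log2 value over the 12 arrays. All 10 were found among the 18404 genes of the table. GPX3 and DIO1 were selected on their log2 values in HIF-2α knockdown, which were already known, so their values in that group are a description and carry no test.

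The groups were HIF-2α knockdown, HIF-1α knockdown and wild type, with 4 arrays each. HIF1A and EPAS1 encode HIF-1α and HIF-2α, the subunits of hypoxia-inducible factors that oxygen destabilises, and the series set the 3 genotypes against each other. All spheroids were 10 days old and came from stirred spinner flasks, and the design text counts 4 spheroid experiments per genotype. The RNA was amplified with a kit that the protocol ties to 250 microdissected cells. No source used here gives the method of knockdown, the number of clones, a control construct in the wild type cells or the region of the spheroid sampled.

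Selenocysteine is inserted at a UGA codon, otherwise a stop signal, with the help of a hairpin in the messenger RNA, and the amount of selenium available sets how much of each selenoprotein is made. The glutathione peroxidases (GPX) reduce hydrogen peroxide and lipid peroxides, the thioredoxin reductases (TXNRD) keep thioredoxin reduced, and MSRB1 repairs oxidised methionine. The liver makes most of the plasma selenium carrier, selenoprotein P (SELENOP), and it holds type 1 deiodinase (DIO1), which converts thyroxine to the active hormone T3 and clears reverse T3.

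All values are log2 array signals, and a difference is a difference of mean log2 values. EPAS1 averaged 9.89 ± 0.16 in HIF-2α knockdown against 11.01 ± 0.18 in wild type, and HIF1A averaged 9.46 ± 0.18 in HIF-1α knockdown against 10.70 ± 0.08 in wild type (log2, SD, n = 4 each), with no overlap of the groups in either case. The 13 measured hepatocyte markers lay between 8.38 and 13.70 as means over the arrays, all above 7.69, the median of all genes. Of the markers of other cell types 2 of 7 macrophage, 1 of 6 endothelial, 1 of 7 fibroblast and 0 of 4 kidney tubule genes lay above that median, and these 4 were LYZ (12.79 to 13.73 over the arrays), CD68 (9.74 to 10.35), PECAM1 (7.73 to 8.49) and ACTA2 (8.88 to 9.57). The leukocyte gene PTPRC was near the floor at 6.41 to 6.70, and the part of other cells in the results was not tested. Along principal component 1 over genes (24.3% of the variance) HIF-2α knockdown replicate 2 scored 25.3, far from the other 11 arrays at -11.8 to 3.3. A raised floor was seen on 3 arrays, HIF-2α knockdown replicate 4 and wild type replicates 1 and 2, whose 0.1 percentile was 6.33 to 6.35 against 6.11 to 6.23 elsewhere. Fewer cells of a type and less RNA per cell cannot be told apart in such bulk samples.

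Across the 3 groups GPX3 and DIO1, chosen on their HIF-2α knockdown values, differed in that group in opposite directions. The other 8 genes did not pass the test in any comparison on the deposited values. Since the pair was chosen that way, this split of the 10 genes is a description. GPX3, the glutathione peroxidase secreted into plasma, was lower in HIF-2α knockdown than in both other groups, and DIO1 was higher there than in both other groups. In HIF-1α knockdown neither was called. The plot of log2 values by array shows the 10 genes on axes of equal span.

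**Figure D1:**
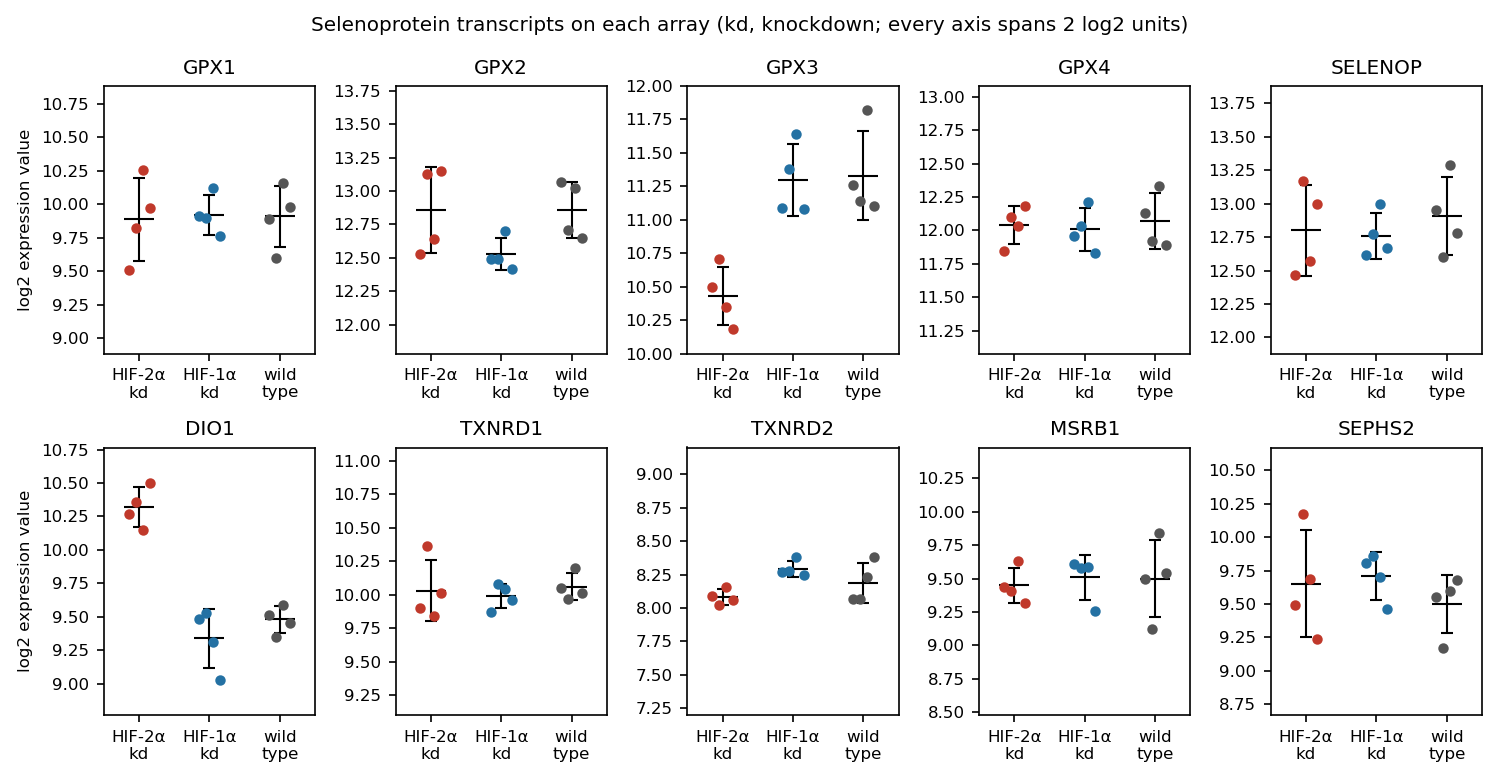
Log2 expression value of each of the 10 selenoprotein genes on each array, with HIF-2α knockdown, HIF-1α knockdown and wild type from left to right. Points are single arrays, the short bar is the mean and the error bar the SD (n = 4). The 4 HIF-2α knockdown arrays lie below all others for GPX3 (10.18 to 10.71) and above all others for DIO1 (10.15 to 10.50), and for the other 8 genes each knockdown group overlaps with wild type.

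GPX3 had log2 values of 10.50, 10.71, 10.35 and 10.18 in HIF-2α knockdown replicates 1 to 4, against 11.26, 11.14, 11.82 and 11.10 in wild type. In HIF-1α knockdown the log2 values were 11.09, 11.38, 11.64 and 11.08. Every HIF-2α knockdown array thus lay below every other array, while HIF-1α knockdown and wild type overlapped over most of their range. The difference of HIF-2α knockdown from wild type was -0.90 on the log2 scale (SE 0.17, 95% interval -1.25 to -0.54), a signal at 53.8% of wild type. From HIF-1α knockdown it was -0.86 (SE 0.17), a signal at 55.0% of that group. HIF-1α knockdown minus wild type was -0.03 (SE 0.17, 95% interval -0.39 to 0.32, limma adjusted p = 0.961). This comparison shares the wild type arrays with the one in which the gene was noticed, so it is not independent of the choice. The order of the levels was HIF-2α knockdown lowest, with no difference beyond the spread between the other groups.

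DIO1 ran the other way. Its log2 values were 10.27, 10.36, 10.15 and 10.50 in HIF-2α knockdown, against 9.51, 9.35, 9.59 and 9.45 in wild type. In HIF-1α knockdown they were 9.48, 9.53, 9.31 and 9.03, so that HIF-1α knockdown and wild type overlapped and the lowest HIF-2α knockdown array still lay above both. The log2 difference of HIF-2α knockdown from wild type was 0.85 (SE 0.10, 95% interval 0.62 to 1.07), or 1.80-fold, and from HIF-1α knockdown 0.99 (SE 0.10), or 1.98-fold. HIF-1α knockdown minus wild type was -0.14 (SE 0.10, 95% interval -0.36 to 0.08, limma adjusted p = 0.656). It too shares the wild type arrays with the comparison in which the gene was noticed.

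The fit over all genes called GPX3 and DIO1 in HIF-2α knockdown against wild type, where it called 0.788% of the 18404 genes (0.478% higher and 0.310% lower). They were also the 2 of the 10 genes whose groups did not overlap there, as in 5.31% of all genes (3.40% higher and 1.91% lower). Since they were noticed in that comparison, nothing is read from these counts. Without the 3 raised-floor arrays neither was called any longer, at -0.94 (SE 0.23) for GPX3 and 0.74 (SE 0.14) for DIO1, with 3 HIF-2α knockdown and 2 wild type arrays left. The GPX3 call was also lost without wild type replicate 1 (-0.92), without HIF-2α knockdown replicates 1 (-0.92), 3 (-0.87) or 4 (-0.81), and with each array centred on its median (-0.89). Without HIF-2α knockdown replicate 2, the array that stood apart, the log2 differences from wild type were -0.99 for GPX3 and 0.83 for DIO1.

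The start regions of these genes are shown because the factors that were knocked down bind DNA at short sites around the letters ACGTG or GCGTG. Each line runs from 250 bases before to 50 bases after the RefSeq start of the gene, 5′ to 3′ on the gene's own strand, with matches to either motif on either strand in capitals. GPX3 lies at chr5:151020341-151020640 and DIO1 at chr1:53893937-53894236, both on the plus strand of GRCh38.p14.
GPX3: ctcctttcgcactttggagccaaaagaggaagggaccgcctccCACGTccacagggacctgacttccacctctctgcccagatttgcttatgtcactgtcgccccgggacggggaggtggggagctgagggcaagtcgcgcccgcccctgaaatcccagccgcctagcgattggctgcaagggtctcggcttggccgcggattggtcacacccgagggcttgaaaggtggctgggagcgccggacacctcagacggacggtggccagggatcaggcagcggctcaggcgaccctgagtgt
DIO1: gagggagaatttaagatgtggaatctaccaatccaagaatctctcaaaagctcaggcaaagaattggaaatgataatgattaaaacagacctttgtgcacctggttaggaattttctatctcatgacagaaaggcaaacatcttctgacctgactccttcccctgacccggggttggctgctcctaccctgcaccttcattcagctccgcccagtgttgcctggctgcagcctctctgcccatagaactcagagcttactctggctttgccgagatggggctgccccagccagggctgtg
The GPX3 window holds 1 match, CACGT, which is ACGTG on the other strand, starting 207 bases before the start of the gene. The DIO1 window holds none, which says only that these letters are not in this stretch. Of the 15 annotated windows of the 10 genes 8 hold a match, as do 48.4% of all 35116 such windows in the table. By gene 6 of the 10 had a match in at least 1 window, as did 52.4% of all 27305 genes with a window. MSRB1, SEPHS2, GPX1, GPX4 and TXNRD1 were the others with a match, and none of these 5 was called in a comparison.

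Of the other listed glutathione peroxidases, GPX4, GPX2 and the brighter GPX1 probe set had means close to wild type in HIF-2α knockdown. GPX4, which reduces phospholipid hydroperoxides within membranes and protects cells from ferroptosis, had log2 values of 11.85, 12.10, 12.03 and 12.18 in HIF-2α knockdown and of 11.96, 12.03, 12.21 and 11.83 in HIF-1α knockdown, against 12.13, 11.92, 12.33 and 11.89 in wild type. The 3 groups overlapped almost wholly. Its log2 difference from wild type was -0.03 in HIF-2α knockdown (SE 0.11, 95% interval -0.26 to 0.20, limma adjusted p = 0.948) and -0.06 in HIF-1α knockdown (SE 0.11, 95% interval -0.29 to 0.17, limma adjusted p = 0.874).

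GPX2, the peroxidase known from the gut epithelium, had the widest range of group means after GPX3 and DIO1. Its log2 values were 12.53, 13.13, 12.64 and 13.15 in HIF-2α knockdown and 12.49, 12.49, 12.70 and 12.42 in HIF-1α knockdown, against 13.07, 12.71, 13.02 and 12.65 in wild type. The HIF-1α knockdown arrays lay low and close together, but the highest of them was above the lowest wild type array. GPX2 did not pass in HIF-1α knockdown against wild type (-0.33, SE 0.14, limma adjusted p = 0.316), nor in HIF-2α knockdown against HIF-1α knockdown (0.34, SE 0.14, limma adjusted p = 0.301). After quantile normalization these log2 differences were -0.01 and 0.06. The mean of 30 ribosomal protein genes, listed as a sign of how the RNA was amplified, ran from 11.85 to 12.16 on the HIF-1α knockdown arrays against 12.18 to 12.67 in wild type. The hepatocyte marker mean ran from 11.98 to 12.26 in HIF-1α knockdown against 12.29 to 12.74 in wild type. The part of these shifts in the GPX2 values was not tested.

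GPX1, the peroxidase of the cytosol in most cells, was the 1 gene with more than 1 probe set, and both are given. The brighter one, which stands for the gene, had log2 values of 9.51, 9.82, 10.26 and 9.97 in HIF-2α knockdown and 9.91, 9.90, 10.12 and 9.76 in HIF-1α knockdown, against 9.89, 9.60, 10.16 and 9.98 in wild type. It did not separate the groups, with log2 differences from wild type of -0.02 in HIF-2α knockdown and 0.01 in HIF-1α knockdown (SE 0.15 each, limma adjusted p = 0.984 in both). The dimmer one, annotated to another GPX1 transcript, had 8.07, 7.76, 7.95 and 8.07 in HIF-2α knockdown and 8.06, 8.10, 8.05 and 7.74 in HIF-1α knockdown, against 8.23, 8.25, 8.15 and 8.29 in wild type. All 8 knockdown arrays were below all 4 wild type arrays there. Fitted over all 19158 probe sets with 1 symbol, the log2 difference of the dimmer one was -0.27 in HIF-2α knockdown (SE 0.09, limma adjusted p = 0.194) and -0.24 in HIF-1α knockdown (SE 0.09, limma adjusted p = 0.209), and both comparisons share the wild type arrays. Among the 18404 genes 1.91% were lower without overlap in HIF-2α knockdown and 2.11% in HIF-1α knockdown. These shares are of the brightest probe set per gene, and the share lower in both knockdowns at once was not counted.

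**Figure D2:**
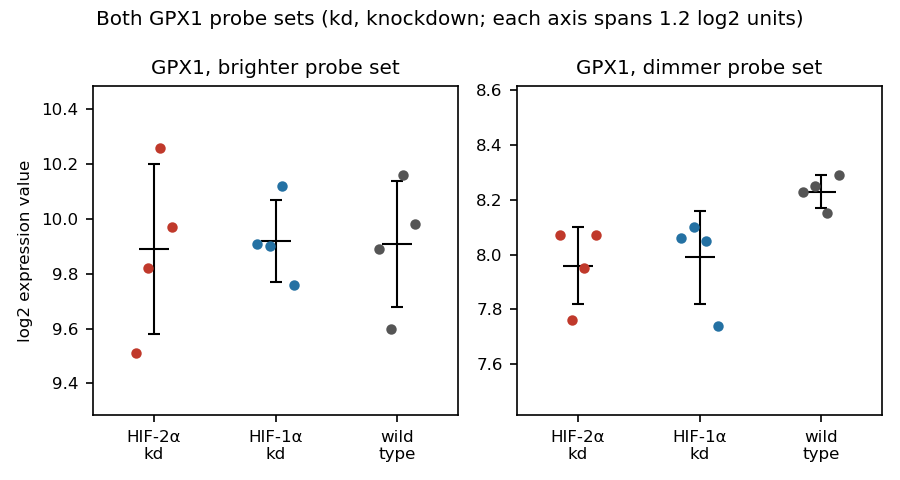
Log2 expression value of the brighter and the dimmer GPX1 probe set on each array, with HIF-2α knockdown, HIF-1α knockdown and wild type from left to right. Points are arrays, the short bar the mean and the error bar the SD (n = 4). Only for the dimmer probe set do all knockdown arrays (7.74 to 8.10) lie below the wild type arrays (8.15 to 8.29).

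SELENOP, the carrier that delivers selenium from liver to other tissues, had log2 values of 12.47, 13.17, 12.57 and 13.00 in HIF-2α knockdown and 12.62, 12.77, 13.00 and 12.67 in HIF-1α knockdown, against 12.95, 12.60, 13.29 and 12.78 in wild type. The groups overlapped, and in every group the arrays were spread over more than the distance between the means. Its log2 difference from wild type was -0.10 in HIF-2α knockdown (SE 0.16, 95% interval -0.46 to 0.25, limma adjusted p = 0.869) and -0.14 in HIF-1α knockdown (SE 0.16, limma adjusted p = 0.790). Signs of SELENOP differences depended on the scaling. In HIF-1α knockdown against wild type the log2 difference was 0.20 after quantile normalization (limma adjusted p = 0.127). HIF-2α knockdown minus HIF-1α knockdown was 0.04 (SE 0.16, limma adjusted p = 0.962) on the deposited values and -0.26 (SE 0.06, limma adjusted p = 0.0257) after quantile normalization.

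The thioredoxin reductases were not called. TXNRD1, the cytosolic enzyme, had log2 values of 9.90, 10.36, 9.84 and 10.01 in HIF-2α knockdown and 9.87, 10.08, 10.04 and 9.96 in HIF-1α knockdown, against 10.05, 9.97, 10.20 and 10.01 in wild type. The groups overlapped, and its log2 differences from wild type were -0.03 in HIF-2α knockdown (SE 0.10, 95% interval -0.24 to 0.18, limma adjusted p = 0.941) and -0.07 in HIF-1α knockdown (SE 0.10, limma adjusted p = 0.832). TXNRD2, the mitochondrial enzyme, had log2 values of 8.09, 8.02, 8.16 and 8.06 in HIF-2α knockdown and 8.27, 8.28, 8.38 and 8.25 in HIF-1α knockdown, against 8.07, 8.07, 8.23 and 8.38 in wild type. The knockdowns did not overlap with each other, and wild type spanned the gap. The log2 difference of TXNRD2 between HIF-2α and HIF-1α knockdown was -0.21 (SE 0.07, limma adjusted p = 0.151), and after quantile normalization it was -0.19 and passed (SE 0.05, limma adjusted p = 0.0316).

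MSRB1, a methionine sulfoxide reductase, had log2 values of 9.44, 9.41, 9.63 and 9.32 in HIF-2α knockdown and 9.61, 9.58, 9.59 and 9.26 in HIF-1α knockdown, against 9.50, 9.12, 9.84 and 9.54 in wild type. SEPHS2 makes selenophosphate, the selenium donor for selenocysteine, and is itself a selenoprotein. Its log2 values were 9.49, 10.17, 9.69 and 9.24 in HIF-2α knockdown and 9.81, 9.86, 9.70 and 9.46 in HIF-1α knockdown, against 9.55, 9.17, 9.60 and 9.68 in wild type. The groups overlapped for both genes. In HIF-2α knockdown the log2 differences from wild type were -0.05 for MSRB1 (SE 0.13, limma adjusted p = 0.929) and 0.15 for SEPHS2 (SE 0.17, limma adjusted p = 0.803). In HIF-1α knockdown they were 0.01 for MSRB1 (SE 0.13, limma adjusted p = 0.989) and 0.21 for SEPHS2 (SE 0.17, limma adjusted p = 0.687).

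In HIF-1α knockdown against wild type 0 of the 10 genes were called by limma, where 0.962% of all genes were (0.815% higher and 0.147% lower). At an unadjusted p below 0.05 it was 1 gene, GPX2, where 13.2% of all genes passed. No gene of the 10 separated these groups without overlap, against 7.84% of all genes (5.73% higher and 2.11% lower). Between HIF-2α and HIF-1α knockdown GPX3 and DIO1 were called, where 2.77% of all genes were (0.967% higher and 1.80% lower), and this comparison shares the HIF-2α knockdown arrays with the one in which they were noticed. DIO1 was higher and GPX3 and TXNRD2 lower there without overlap, as were 9.08% of all genes (3.73% higher and 5.35% lower). The median log2 difference of the 10 genes was -0.03 in HIF-2α knockdown and -0.05 in HIF-1α knockdown against wild type, beside -0.01 and 0.00 over all genes.

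**Figure D3:**
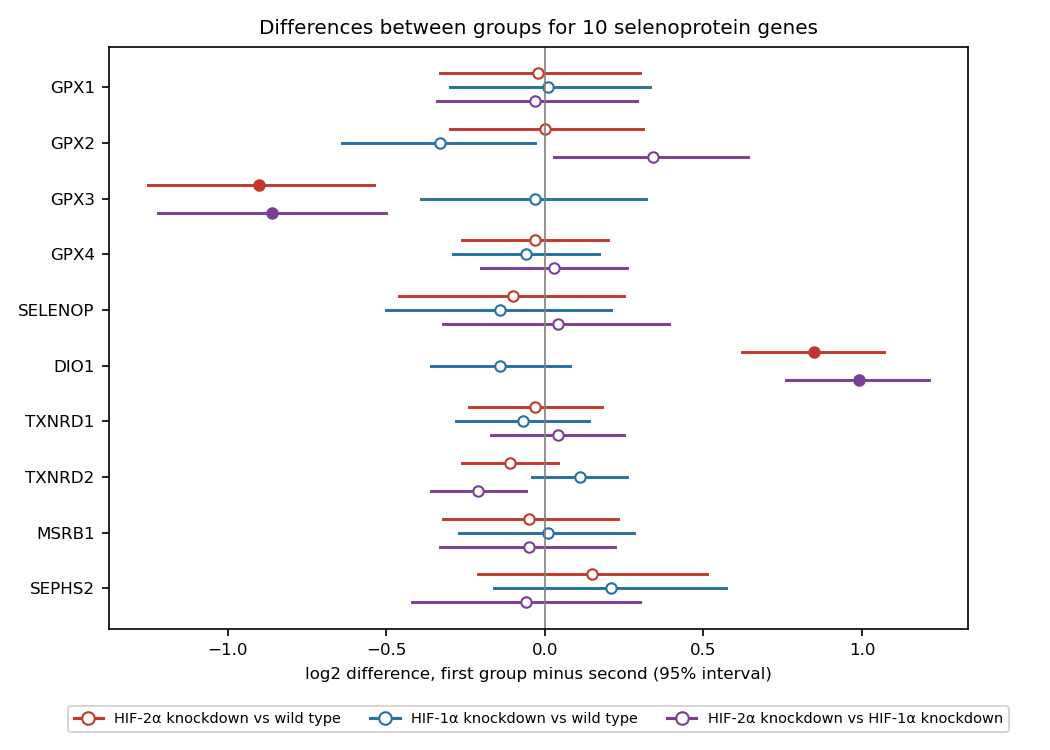
Log2 difference of the first group minus the second with its 95% interval for the 10 genes in the 3 comparisons, from limma. Filled points passed an adjusted p of 0.05 over all genes. GPX3 (-0.90 and -0.86) and DIO1 (0.85 and 0.99) stand away from 0 in the comparisons that involve HIF-2α knockdown, and the other genes lie between -0.33 and 0.34. Both were chosen on their HIF-2α knockdown values, so their filled points are a description.

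Several of the 10 genes were highest or lowest of their group on the same arrays. The share of all genes that were so on these arrays was not counted, so nothing is read from the numbers. Wild type replicate 3 was the highest of its group for 7 of the 10 genes, GPX3 and DIO1 among them, and HIF-1α knockdown replicate 3 for 6. HIF-1α knockdown replicate 4 was the lowest of its group for 8, and wild type replicate 2 for 6. The ribosomal protein mean was also highest in its group on wild type replicate 3 (12.67) and HIF-1α knockdown replicate 3 (12.16), and lowest on HIF-1α knockdown replicate 4 (11.85) and wild type replicate 2 (12.18). In HIF-2α knockdown no array was highest for more than 4 of the genes. The ribosomal protein mean there was highest on replicate 4 (12.58), which was highest for 3 of the 10 genes and lowest for 3. It was lowest on replicate 1 (11.98), which was lowest for 4 and highest for 0. Whether the ribosomal protein level moves these values was not tested. Without wild type replicate 3 the GPX3 difference of HIF-2α knockdown from wild type was -0.73.

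Of the 15 remaining human selenoprotein genes 14 were measured, and limma called 0 of them in any comparison, where it called 0.788% to 2.77% of all genes. At an unadjusted p below 0.05 there was 1 in each knockdown against wild type, SELENOM in HIF-2α knockdown and SELENOH in HIF-1α knockdown, and SELENOF and SELENOM between the knockdowns. Of all genes 2210, or 12%, passed that threshold in HIF-2α knockdown against wild type, 13.2% in HIF-1α knockdown against wild type and 13.6% between the knockdowns. DIO2, the deiodinase that activates thyroid hormone outside the liver, and DIO3, which inactivates it, did not share the difference of DIO1. DIO2 lay between 6.55 and 6.68 in HIF-2α knockdown against 6.42 to 6.66 in wild type, and DIO3 averaged 7.05 ± 0.04 in HIF-2α knockdown against 7.13 ± 0.10 in wild type (log2, SD, n = 4 each). Both levels are near the floor of the arrays, where a level cannot be told from no signal, as is GPX6 at group means of 6.67 to 6.70. SELENOM, a selenoprotein of the endoplasmic reticulum, had the smallest p in HIF-2α knockdown, with 8.16 ± 0.19 there against 8.50 ± 0.17 in wild type (log2, SD, n = 4 each, difference -0.34, SE 0.11, limma adjusted p = 0.199). SELENOT, another protein of that compartment, had 12.04 ± 0.25 in HIF-2α knockdown against 11.71 ± 0.35 in wild type (difference 0.33, SE 0.15, limma adjusted p = 0.421). In HIF-1α knockdown the 14 log2 differences lay between -0.14 and 0.20.

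Of 12 measured genes for selenocysteine synthesis and insertion and selenium uptake, limma called 0 in either knockdown against wild type. Of all genes it called 0.788% in HIF-2α knockdown and 0.962% in HIF-1α knockdown. At an unadjusted p below 0.05 there were 3 of the 12 in each knockdown, where 12% of all genes passed in HIF-2α knockdown and 13.2% in HIF-1α knockdown. The list had median log2 differences of 0.03 in HIF-2α knockdown and 0.08 in HIF-1α knockdown. SECISBP2, the protein that binds the selenocysteine insertion hairpin, had log2 values of 9.73 to 10.01 in HIF-2α knockdown and 9.71 to 9.86 in HIF-1α knockdown, against 9.39 to 9.74 in wild type. Its log2 differences from wild type, which share those arrays, were 0.27 (SE 0.08, limma adjusted p = 0.140) in HIF-2α knockdown and 0.23 (SE 0.08, limma adjusted p = 0.189) in HIF-1α knockdown. TRIT1, which modifies the selenocysteine transfer RNA among others, was the 1 gene of the list called, in the comparison of the knockdowns, where 2.77% of all genes were. TRIT1 had 9.32, 9.27, 9.20 and 9.17 in HIF-2α knockdown against 8.83, 8.98, 8.97 and 9.02 in HIF-1α knockdown (log2). It was higher by 0.29 (SE 0.06, limma adjusted p = 0.0225) without overlap, as were 3.73% of all genes. LRP8 (-0.22) and PSTK (-0.14) were lower there without overlap, as were 5.35% of all genes. At an unadjusted p below 0.05 there were 4 of the 12 between the knockdowns, where 13.6% of all genes passed. The TRIT1 call was lost with an intensity trend, without the raised-floor arrays and without any 1 of 5 single arrays, HIF-1α knockdown replicates 1, 2 and 3 and HIF-2α knockdown replicates 1 and 2, with log2 differences of 0.25 to 0.31.

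Relatives and partners of the 10 genes gave 0 calls in every comparison by limma. They were the 6 peroxidase and methionine sulfoxide reductase genes with cysteine in place of selenocysteine, 18 thioredoxin, glutathione and peroxide genes, 11 thyroid hormone genes and 13 ferroptosis genes. Some, such as GPX8 (group means 6.54 to 6.68) and ME1 (6.50 to 6.61), lay near the floor. Of all genes 0.788% were called in HIF-2α knockdown and 0.962% in HIF-1α knockdown against wild type, and 2.77% between the knockdowns. At such shares nothing is read from the 0 calls. At an unadjusted p below 0.05 there were 6 of these 48 in HIF-2α knockdown against wild type (12% of all genes), 5 in HIF-1α knockdown against wild type (13.2% of all genes) and 12 between the knockdowns (13.6% of all genes). GPX7, a cysteine peroxidase of the endoplasmic reticulum, had log2 values of 9.55, 9.85, 9.72 and 9.51 in HIF-2α knockdown, against 9.10, 8.87, 9.52 and 9.03 in wild type, where replicate 3 alone reached the knockdown range (difference 0.53, SE 0.14, limma adjusted p = 0.0961). CAT, the peroxisomal catalase, had 11.23 ± 0.24 in HIF-2α knockdown against 10.93 ± 0.20 in wild type (log2, SD, n = 4 each, difference 0.30, SE 0.11, limma adjusted p = 0.287).

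Around DIO1, SLC16A10, which transports thyroid hormones and aromatic amino acids, had 10.28 ± 0.08 in HIF-2α knockdown against 9.95 ± 0.22 in wild type (log2, SD, n = 4 each, difference 0.33, SE 0.09, limma adjusted p = 0.126). THRB, the thyroid hormone receptor that prevails in liver, had 8.91, 8.93, 8.65 and 8.69 in HIF-2α knockdown against 8.59, 8.57, 8.58 and 8.63 in wild type (log2). The THRB groups did not overlap, as 3.40% of all genes did not in this direction, but the log2 difference of 0.20 missed the threshold (SE 0.07, limma adjusted p = 0.203). GCH1, an enzyme whose product protects from ferroptosis, had 8.68 ± 0.10 in HIF-2α knockdown against 8.38 ± 0.17 in wild type, also without overlap (log2, SD, n = 4 each, difference 0.31, SE 0.08, limma adjusted p = 0.119). The medians of these 4 lists lay between -0.05 and 0.02 in HIF-2α knockdown and between -0.03 and 0.06 in HIF-1α knockdown.

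**Figure D4:**
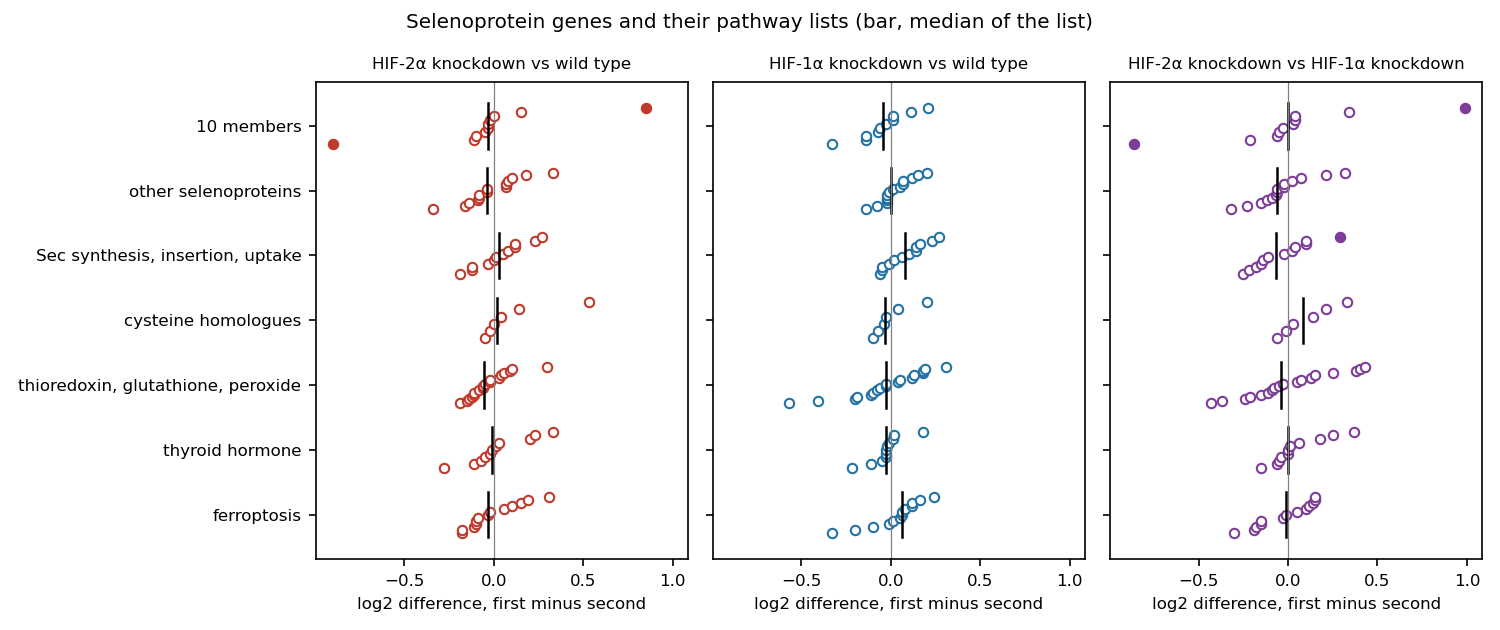
Log2 difference of the first group minus the second for each measured gene of the 10 described, the other selenoproteins and 5 pathway lists (Sec, selenocysteine), with 1 panel per comparison. Filled points passed an adjusted p of 0.05 over all genes and the bar is the median of the list. GPX3 and DIO1, chosen on their HIF-2α knockdown values, are the filled points of the top row. TRIT1 in the comparison of the knockdowns is the only other one.

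The genes whose profile over the 12 arrays was most like that of GPX3 were CAVIN2, a caveola protein, BHLHE40, a transcription factor, LOX, lysyl oxidase, ITGA2, an integrin subunit, and RNASET2, a ribonuclease. The root mean square difference between mean-centred log2 profiles ran from 0.161 for CAVIN2 to 0.184 for ITGA2 and RNASET2, where the GPX3 profile itself had a root mean square of 0.479. Their log2 differences in HIF-2α knockdown against wild type lay between -1.03 for BHLHE40 and -0.66 for ITGA2, and in HIF-1α knockdown against wild type between -0.26 for LOX and 0.05 for CAVIN2. For DIO1 they were BEX1, ODAM, GCA, which encodes the calcium-binding protein grancalcin, UGT2A3, a glucuronosyltransferase, and RAVER2, at 0.169 for BEX1 to 0.219 for RAVER2 beside 0.459 for DIO1 itself. Their log2 differences in HIF-2α knockdown against wild type lay between 0.56 for GCA and 0.97 for BEX1, and in HIF-1α knockdown against wild type between -0.25 for UGT2A3 and 0.14 for BEX1. These genes were ranked on the same arrays, so their differences are a description of likeness.

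**Figure D5:**
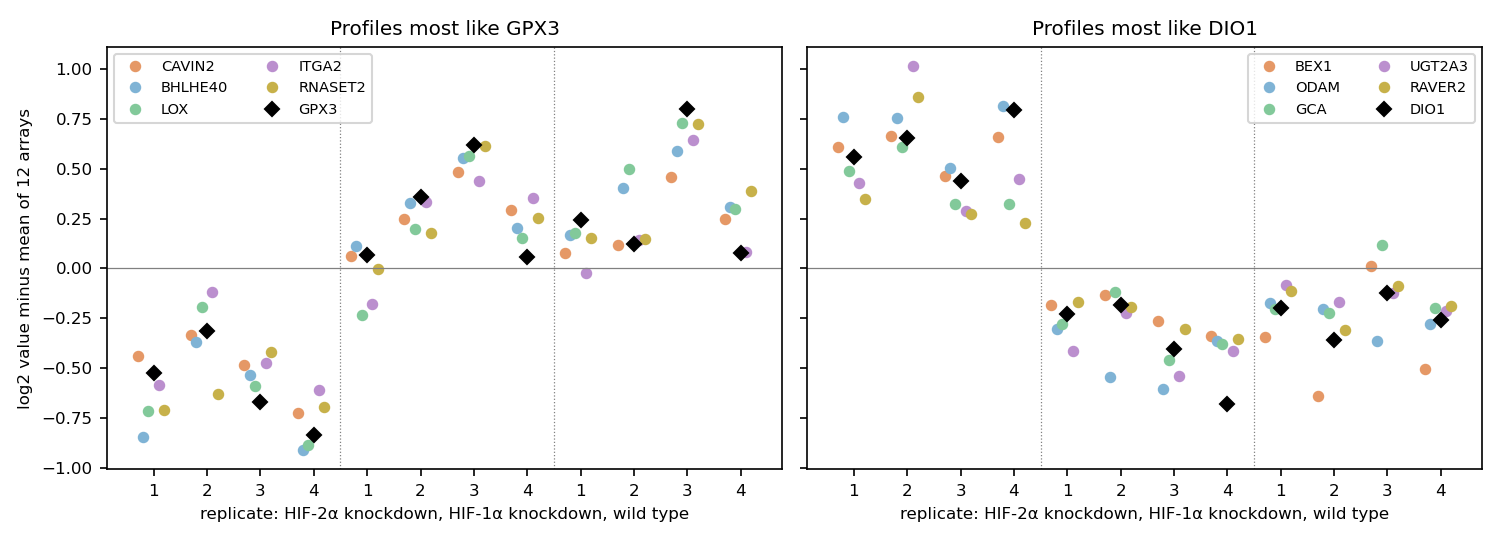
Log2 value minus the gene's mean over the 12 arrays for GPX3 (left) and DIO1 (right), black diamonds, and the 5 genes with the closest profile, coloured points. Arrays run by replicate number within HIF-2α knockdown, HIF-1α knockdown and wild type, divided by dotted lines. The GPX3 panel is low and the DIO1 panel high on the 4 HIF-2α knockdown arrays.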

How the data were processed

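The authors deposited 1 table of log2 values for 32321 probe sets on 12 arrays, whose range of 5.93 to 15.05 is the ground for taking the logarithm as base 2. No source used here states the background correction, summarization or normalization, and array medians lay between 7.29 and 7.41. Symbols came from the platform annotation, updated through identifiers in RefSeq (GRCh38.p14): 19158 probe sets had 1 symbol, 1388 several and 11775 none. The brightest probe set stood for each of the 637 genes with more than 1. Groups were compared with lmFit and eBayes of limma 3.58.1 in R 4.3.3, with 1 mean per group over all 12 arrays, Benjamini-Hochberg adjustment over 18404 genes and a call below 0.05; no gene was filtered. In simulated data for HIF-2α knockdown against wild type, over 18404 genes, the test recovered 48% of genes changed 1.25-fold, 94% changed 1.5-fold and 99% changed 2-fold. Each gene was simulated with its own independent noise, without the array deviations that many genes share in the deposited values. These shares therefore do not show that changes of such sizes are absent among the genes not called.

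The choice of the 10 genes, of the pathway lists and of the genes named was made with earlier results of these data known. The rule for naming takes the 10 genes, HIF1A and EPAS1, the other selenoproteins, called genes and up to 3 of smallest p per list, and the 5 genes closest in profile to GPX3 and to DIO1. Nothing beyond the design text shows that the arrays are separate cultures, so p-values cover the spread between them, and their number limits the precision. Some genes of the lists, TXNRD3 and SCLY among them, were not analysed here. Promoter windows are those of RefSeq for GRCh38.p14, in which all 10 genes matched by symbol.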

Additional observations from a re-analysis of the deposited data

Results flagged for a closer look

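The effect of HIF-2α knockdown minus that of HIF-1α knockdown, both against the same wild type arrays, was -0.86 for GPX3 and 0.99 for DIO1 on the log2 scale, given as values since both were chosen with their HIF-2α knockdown levels known. Of the other 147 selenoprotein, pathway and marker genes, 4 were called in this difference, against 2.77% of all genes, and nothing is read from this count. TRIT1 differed by 0.29 (limma adjusted p = 0.0225). Among the marker genes CD14 differed by -0.39 (limma adjusted p = 0.00899), PDGFRB by -0.35 (limma adjusted p = 0.0105) and RPL11 by 0.76 (limma adjusted p = 0.0206). None of these 3 was called without the raised-floor arrays, at -0.37 for CD14, -0.33 for PDGFRB and 0.64 for RPL11. The RPL11 call was also lost with only the arrays compared and without HIF-1α knockdown replicate 1 (0.72) or 2 (0.71) or HIF-2α knockdown replicate 2 (0.68) or 4 (0.64). Against wild type PDGFRB was called in HIF-2α knockdown (-0.40, limma adjusted p = 0.0109) and RPL11 in HIF-1α knockdown (-0.78, limma adjusted p = 0.0368). With single arrays left out the PDGFRB call held in 12 of 12 fits and the RPL11 call in 5 of 12. In the other settings the PDGFRB call held in 5 of 7 and the RPL11 call in 6 of 8. On the deposited values CD14 and TRIT1 were called in neither knockdown against wild type. CD14 in HIF-1α knockdown was at 0.31 (limma adjusted p = 0.0562). It was called there in 3 of 7 other settings and in 3 of 12 fits with single arrays left out. TRIT1 in HIF-2α knockdown was at 0.23 (limma adjusted p = 0.11).

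MSRB1 in HIF-1α knockdown replicate 4 lay at 9.26 (log2), far below the other 3 arrays of its group at 9.58 to 9.61. It was the 1 such array in 42 groups examined, where chance alone gives about 5%.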

How the results depend on the processing

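In HIF-2α knockdown against wild type 145 genes were called, 88 higher and 57 lower. There were 404 after quantile normalization (141 higher, 263 lower), 72 with each array centred on its median (34 higher, 38 lower), 286 with an intensity trend, 64 with only the arrays compared and 37 without the raised-floor arrays. Leaving out single arrays gave 61 to 219, lowest with wild type replicate 4 omitted and highest with its replicate 3 omitted, and the count also moved by over 1.5 times without HIF-2α knockdown replicate 1 or wild type replicate 1 or 2. Of the 10 selenoprotein genes 2 were called, 1 after centring (DIO1), 0 without the raised-floor arrays and 1 to 2 with single arrays left out.

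In HIF-1α knockdown against wild type 177 genes were called, 150 higher and 27 lower. Quantile normalization gave 254 (140 higher, 114 lower), centring 85, only the arrays compared 396, the fit without raised-floor arrays 22, and single arrays left out 50 to 483, lowest with HIF-1α knockdown replicate 3 omitted and highest with wild type replicate 3 omitted, with moves of over 1.5 times for all 4 wild type arrays and HIF-1α knockdown replicates 2, 3 and 4. None of the 10 genes was called under any setting run. Between the knockdowns 509 genes were called, against 888 after quantile normalization, 337 after centring and 259 without the raised-floor arrays, with 211 (without HIF-1α knockdown replicate 3) to 618 (without HIF-2α knockdown replicate 1) when single arrays were left out, and moves of over 1.5 times also for HIF-1α knockdown replicates 2 and 4 and HIF-2α knockdown replicate 4. Of the 10 genes 2 were called there, 4 after quantile normalization, 1 without the raised-floor arrays (DIO1), and 1 to 2 with single arrays left out (GPX3 was lost without HIF-1α knockdown replicate 3 or HIF-2α knockdown replicate 4). After quantile normalization SELENOP between the knockdowns was -0.26, beside 0.04, and in HIF-1α knockdown against wild type 0.20, beside -0.14; the cause was not tested.

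The labels number the arrays 1 to 4 in each group, but same-numbered arrays did not deviate together throughout. Their correlations over genes were -0.17 to -0.03 between HIF-2α knockdown and wild type, where 0 of 8 arrays correlated best with their own number. Between HIF-1α knockdown and wild type they were -0.04 to 0.64, with 3 pairs over 0.1 and 4 of 8 arrays best with their own number. Between the knockdowns they were 0.03 to 0.22, with 1 of 8. A batch shared by number was not tested. With the replicate number as a block 202, 234 and 562 genes were called in the comparisons in the order above, and the same 2, 0 and 2 of the 10 genes.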
